A study of Mus musculus with 9 samples.

Results

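The 48 genes described here encode components of the TGF-beta, BMP and activin pathways: ligands, latent binding proteins, receptors, Smads, corepressors and antagonists. They were chosen by gene name and are 48 of the 35675 genes measured. All 48 passed the filter on low counts and were tested. RNA was sequenced from 9 libraries of mouse embryonic fibroblasts (MEFs) in a study that reprogrammed fibroblasts towards myogenic progenitors. Of these, 3 libraries came from MEFs with ectopic MyoD and the small molecules F/R/C (here F/R/C), 3 from MEFs with MyoD alone (MyoD) and 3 from untreated MEFs (MEF). MyoD is a transcription factor that starts the skeletal muscle programme. Every group, the untreated cells included, carried the Dmdmdx genotype, the dystrophin mutation of the mdx mouse. The labels name neither the vector nor the length of treatment. They do not spell out the letters F/R/C, and do not state whether cultures were shared within a group. The p-values below therefore measure only the spread between these libraries. In published work with this reprogramming protocol the letters stand for forskolin, RepSox (an inhibitor of the type I TGF-beta receptor) and an inhibitor of glycogen synthase kinase.

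Ligands of the TGF-beta superfamily bind pairs of type I and type II receptor kinases, which phosphorylate Smad proteins that move to the nucleus with the common partner Smad4. TGF-betas, activins and myostatin act mainly through Smad2 and Smad3, and BMPs through Smad1, Smad5 and Smad9. TGF-beta is secreted in a latent form bound to matrix proteins and drives collagen production in fibroblasts. Myostatin, made by skeletal muscle itself, limits muscle mass. Both TGF-beta and BMP signals restrain myogenic differentiation in culture.

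Libraries held 21112071 to 24291056 estimated counts. Levels are given in CPM, counts scaled to the effective library size, in the order of replicates 1, 2 and 3. Myod1 stood at 269, 281 and 330 CPM in F/R/C, 7.2, 9.02 and 18.9 CPM in MyoD and 2.6, 0.402 and 5.99 CPM in MEF libraries. Its log2 fold change with F/R/C was 6.61 ± 0.89 against MEF and 4.65 ± 0.81 against MyoD (SE, edgeR adjusted p = 0.0011 and 0.004). With MyoD alone against MEF it was 1.97 ± 0.74 (SE, edgeR adjusted p = 0.886), not called. The F/R/C and MyoD groups thus differ in Myod1 RNA as well as in the small molecules, and their parts in the changes below cannot be told apart. All 10 fibroblast markers were detected in every library, and summed to 6720.5 to 10072 CPM in F/R/C, 12903 to 36939 CPM in MyoD and 21223 to 82727 CPM in MEF libraries. Members of this list did not move alike. With F/R/C, only Col1a1, Col1a2 and Fbn1 were lower than in MEF at an edgeR adjusted p under 0.05. Against MyoD only Col1a2 and Vim were. The log2 fold changes against MEF and MyoD were -0.11 and 0.35 for Thy1 and 0.15 and 2.18 for Dcn. The 10 skeletal muscle markers summed to 31584 to 47875 CPM in F/R/C, 1023 to 3068 CPM in MyoD and 4.71 to 499 CPM in MEF libraries, where replicate 3 alone accounted for the highest value and replicates 1 and 2 stood at 5.95 and 4.71 CPM. In such bulk RNA, fewer cells of a type and less RNA per cell cannot be told apart. The part of these marker shifts in the changes described below was not tested.

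With F/R/C, the genes that hold TGF-beta latent in the matrix fell together, while myostatin, the BMP ligand Gdf5, the BMP antagonist noggin and the receptor Tgfbr1 rose. Against MEF, 9 of the 48 genes rose and 17 fell at an adjusted p under 0.05, 54.2% of the members, while 37.6% of all 15714 genes tested were called (19.5% higher and 18.1% lower). Against MyoD, 7 rose and 14 fell, 43.8% of the members, beside 33.9% of all genes (17.8% higher and 16.1% lower). The median log2 fold change of the 48 genes was -0.61 against MEF and -0.47 against MyoD, beside -0.04 and -0.02 over all genes tested. The libraries of F/R/C did not overlap those of MEF for 33 of the 48 genes, beside 53.2% of all genes, and those of MyoD for 29, beside 49.8%. Both comparisons share the F/R/C libraries and are not independent of each other. Without F/R/C replicate 3, which had the lowest level among the F/R/C libraries for 34 of the 48 genes, 9 fell against MEF and 9 against MyoD. Calls over all genes dropped as well without F/R/C replicate 3, from 2849 to 2065 lower against MEF and from 2531 to 1760 lower against MyoD. Without MyoD replicate 1, 9 members fell against MyoD, beside 1852 of all genes.

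**Figure D1:**
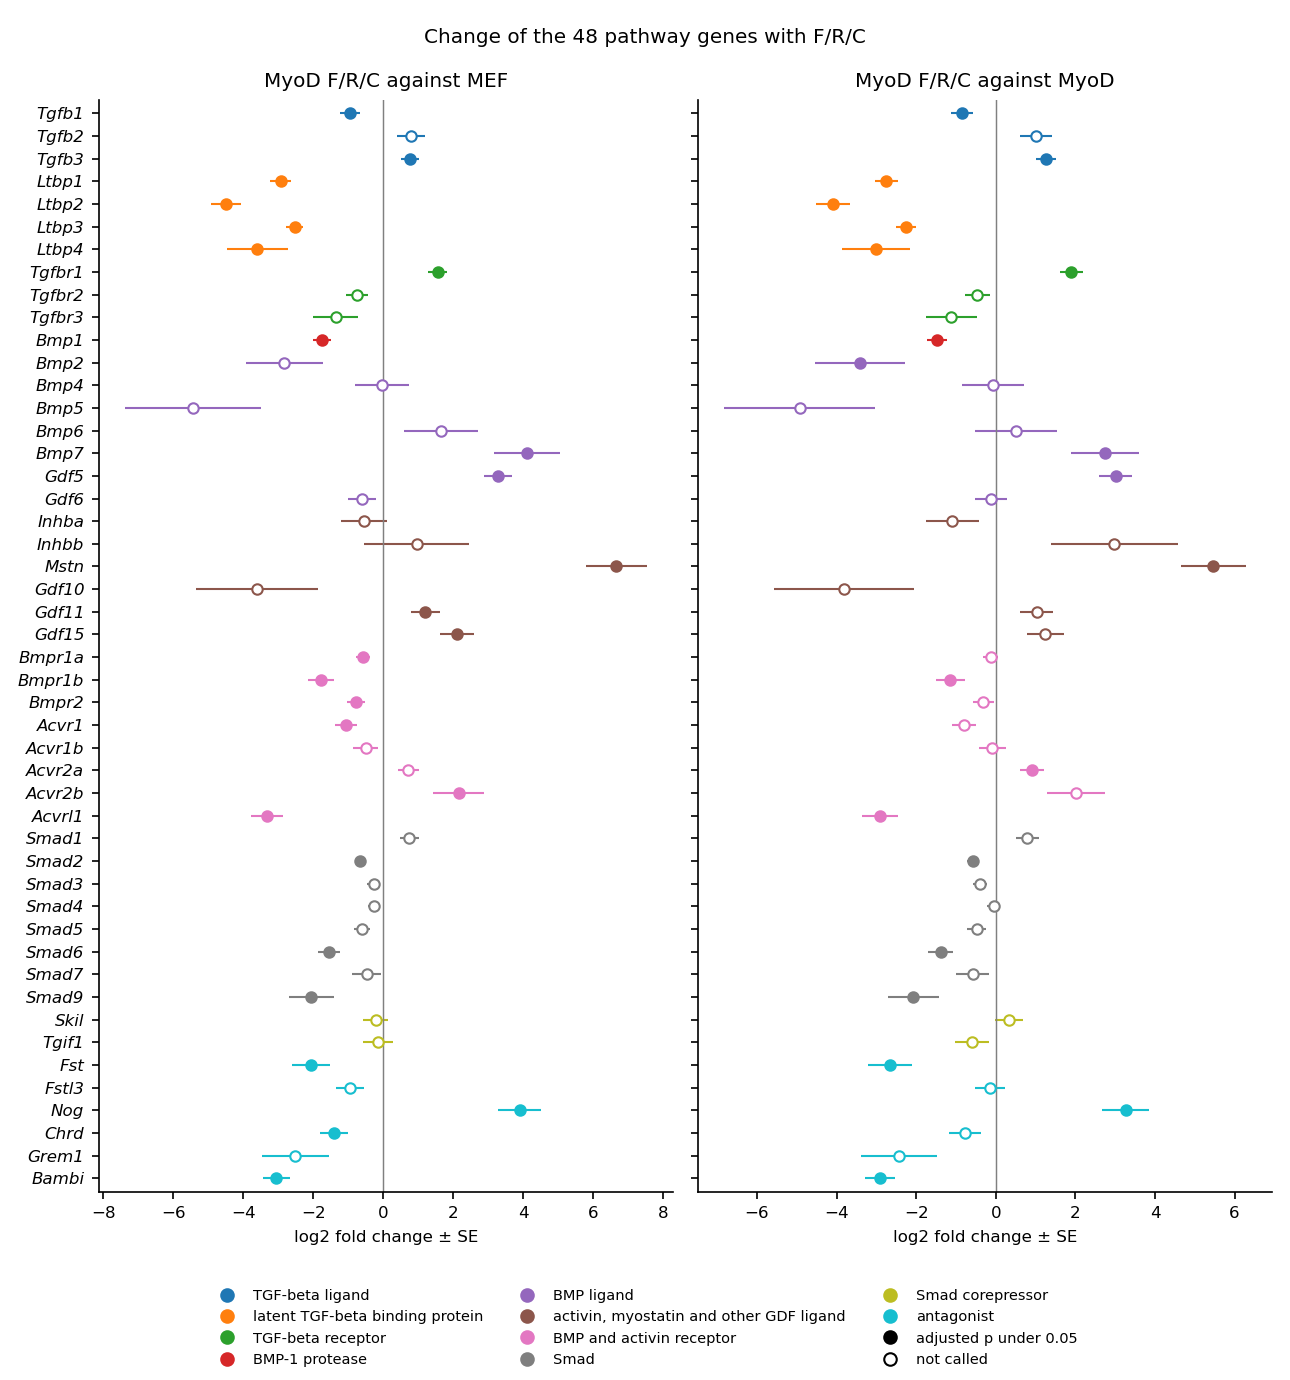
Log2 fold change ± SE of each of the 48 genes (x axis) with F/R/C against MEF (left) and against MyoD (right), coloured by role. Filled points had an adjusted p under 0.05. The 4 latent binding proteins lie left of 0 in both panels and Mstn lies farthest right, at 6.65 and 5.46.

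All 4 genes of latent TGF-beta binding proteins fell in both comparisons. These matrix proteins tie the latent TGF-beta complex to fibrillin and fibronectin, except Ltbp2, which shares their structure but is not known to bind latent TGF-beta. Ltbp1 (chr17:75005568-75392512 of GRCm38) had 149, 149.8 and 91.9 CPM in F/R/C, 839.8, 967 and 823 CPM in MyoD and 713, 1139 and 1139.7 CPM in MEF. Every F/R/C library lay below every other library, and the log2 fold change was -2.94 ± 0.30 (SE, edgeR adjusted p = 0.000422) against MEF and -2.75 ± 0.30 (SE, edgeR adjusted p = 0.000722) against MyoD. Ltbp2 (chr12:84783212-84876532) had 36.8, 62.4 and 26.6 CPM in F/R/C, 542, 874 and 739 CPM in MyoD and 875, 1282 and 668 CPM in MEF. Its mean was 22.5-fold lower than in MEF and 17.1-fold lower than in MyoD libraries, with log2 fold changes of -4.49 ± 0.43 (SE, edgeR adjusted p = 0.00036) and -4.10 ± 0.42 (SE, edgeR adjusted p = 0.000665). Ltbp3 (chr19:5740904-5758532) had 209, 186 and 141 CPM in F/R/C, 969.9, 735 and 874 CPM in MyoD and 1206, 1045 and 862 CPM in MEF, again with no overlap between F/R/C and the other groups. The changes of Ltbp3 were -2.54 ± 0.25 (SE, edgeR adjusted p = 0.0004) against MEF and -2.27 ± 0.25 (SE, edgeR adjusted p = 0.000792) against MyoD. Ltbp4, a known modifier of muscular dystrophy in mice, had 31.6, 27.9 and 28.7 CPM in F/R/C, 457, 199 and 51.6 CPM in MyoD and 613, 371 and 83.5 CPM in MEF. For Ltbp4 the F/R/C libraries were close to each other, while the MyoD and MEF libraries spread over a wide range with replicate 3 lowest in both. Its change was -3.60 ± 0.87 (SE, edgeR adjusted p = 0.0123) against MEF, or -3.00 without MEF replicate 1, and -3.00 ± 0.85 (SE, edgeR adjusted p = 0.0259) against MyoD, or -2.10 without MyoD replicate 1. The call against MEF was lost without F/R/C replicate 3 (edgeR adjusted p = 0.0512). That against MyoD was lost without any 1 of F/R/C replicates 1, 2 or 3 or MyoD replicate 1, with adjusted p from edgeR of 0.0728, 0.0794, 0.0868 and 0.0827.

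Promoters are shown for 2 of the latent binding proteins, which fell together, and for Tgfbr1 and Mstn, the receptor and the ligand whose rise is described next. Each is the stretch of 250 bases before a RefSeq transcription start on GRCm38.p6, the most upstream where a gene has more than 1, 5′ to 3′ on the strand of the gene, with capitals marking any CANNTG (the E-box core bound by MyoD and its relatives) and any TGACGTCA (the full cAMP response element). The stretches are chr17:75005279-75005528 for Ltbp1, chr19:5740650-5740899 for Ltbp3, chr4:47352972-47353221 for Tgfbr1 and chr1:53061390-53061639 for Mstn, all on the plus strand.
Ltbp1: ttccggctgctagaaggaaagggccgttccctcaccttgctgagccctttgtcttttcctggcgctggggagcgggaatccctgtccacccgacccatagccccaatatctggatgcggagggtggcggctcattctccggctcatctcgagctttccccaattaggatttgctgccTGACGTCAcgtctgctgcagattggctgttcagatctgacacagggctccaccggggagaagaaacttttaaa
Ltbp3: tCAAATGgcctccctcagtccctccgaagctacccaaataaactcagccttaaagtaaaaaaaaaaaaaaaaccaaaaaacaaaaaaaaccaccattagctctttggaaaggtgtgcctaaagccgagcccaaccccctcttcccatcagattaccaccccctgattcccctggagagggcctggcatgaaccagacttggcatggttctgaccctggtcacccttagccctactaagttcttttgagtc
Tgfbr1: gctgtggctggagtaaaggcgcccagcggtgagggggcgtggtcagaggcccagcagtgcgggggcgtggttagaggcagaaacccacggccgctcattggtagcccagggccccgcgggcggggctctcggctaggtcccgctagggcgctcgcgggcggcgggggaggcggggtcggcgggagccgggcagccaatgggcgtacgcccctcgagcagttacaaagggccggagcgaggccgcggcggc
Mstn: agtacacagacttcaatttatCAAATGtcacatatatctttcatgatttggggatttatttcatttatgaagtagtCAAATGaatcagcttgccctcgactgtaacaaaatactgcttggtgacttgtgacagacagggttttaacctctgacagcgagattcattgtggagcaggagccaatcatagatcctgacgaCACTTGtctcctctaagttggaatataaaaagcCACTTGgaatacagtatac
The Ltbp1 stretch holds 1 TGACGTCA, which begins 73 bases before the start, and no CANNTG. That of Ltbp3 holds 1 CANNTG, 249 bases before the start, and that of Tgfbr1 holds neither motif. Ltbp1 and Tgfbr1 each have a second start, not printed, with 2 and 1 CANNTG. The 1 start of Ltbp2 holds 2 CANNTG, and the 3 starts of Ltbp4 hold 1 or 2 each. In the Mstn stretch 4 CANNTG begin 229, 174, 52 and 19 bases before the start, the pair farther from the start as CAAATG and the nearer pair as CACTTG. Of the 32851 promoters in the table, 66.2% hold at least 1 CANNTG, 3.84% hold 4 or more and 1.55% hold TGACGTCA. Promoters were found for 33 of the 48 genes, with 46 starts among them, of which 50% hold CANNTG, 6.52% its form CAGCTG (13% of all promoters) and 2.17% TGACGTCA. The Smad-binding form CAGAC, searched on both strands like the others, is in 50% of these starts and in 42.2% of all promoters. Mstn has 2 CAGAC in its stretch.

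**Figure D2:**
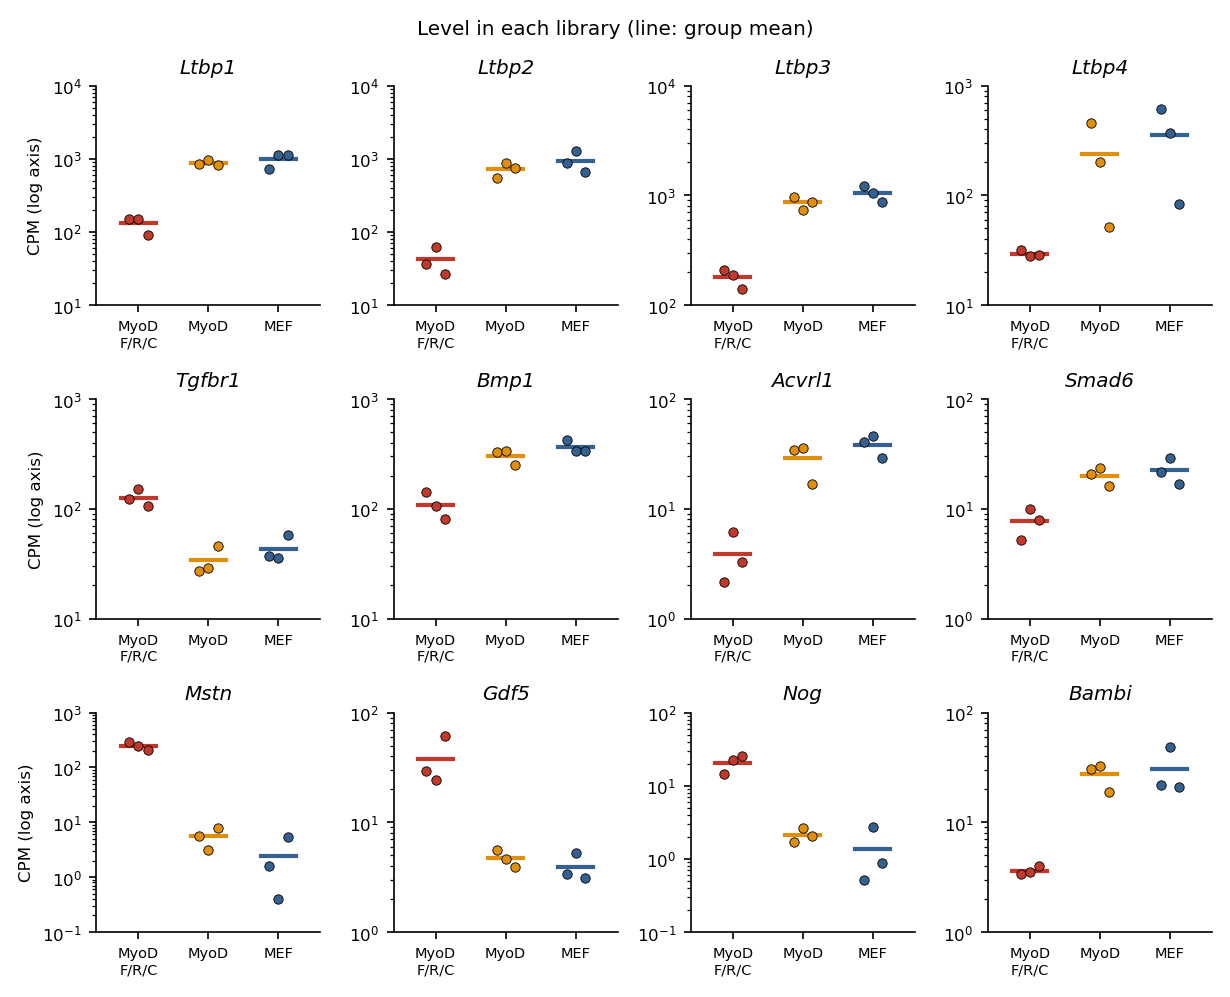
CPM on a log axis in each library of F/R/C, MyoD and MEF for 12 of the genes, with a line at the group mean. In every panel shown the F/R/C libraries lie wholly above (Tgfbr1, Mstn, Gdf5, Nog) or wholly below (the other 8 genes) those of both other groups.

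The 3 TGF-beta ligand genes did not move alike. Tgfb1, the isoform most tied to fibrosis, fell to 25.9, 36.1 and 25.8 CPM in F/R/C libraries, against 65.8, 36.3 and 55.4 CPM in MyoD and 71.4, 44.3 and 54.3 CPM in MEF libraries. The highest F/R/C library, replicate 2, lay just under the lowest MyoD library. The change was -0.95 ± 0.28 (SE, edgeR adjusted p = 0.0256) against MEF and -0.84 ± 0.28 (SE, edgeR adjusted p = 0.0438) against MyoD, and a call ended without F/R/C replicate 1 or 3, without MEF replicate 1 and without MyoD replicate 1 or 3 (edgeR adjusted p between 0.0675 and 0.143). Tgfb3, an isoform needed for palate and lung development, had 396, 440.1 and 593 CPM in F/R/C, 185, 165 and 247 CPM in MyoD and 282, 224 and 338 CPM in MEF. It rose by 0.76 ± 0.25 (SE, edgeR adjusted p = 0.0438) against MEF and by 1.26 ± 0.26 (SE, edgeR adjusted p = 0.00746) against MyoD. The call against MyoD held under every alternative, while that against MEF was lost without any 1 of MEF replicates 1 and 2, MyoD replicates 1 and 2 and F/R/C replicates 2 and 3 (edgeR adjusted p of 0.115, 0.176, 0.0651, 0.0513, 0.0773 and 0.127). Tgfb2, the third isoform, had 216, 187 and 116 CPM in F/R/C, 121, 80.4 and 56.5 CPM in MyoD and 131, 116 and 53.7 CPM in MEF. F/R/C replicate 3 overlapped the other groups, and the changes of 0.78 ± 0.40 (SE, edgeR adjusted p = 0.156) and 1.01 ± 0.40 (SE, edgeR adjusted p = 0.084) were not called. With replicate number as a block, Tgfb2 was called against MEF (log2 fold change 0.83, edgeR adjusted p = 0.00772).

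Bmp1, in spite of its name, encodes a protease that trims procollagen and cleaves chordin and latent TGF-beta complexes. It fell to 142, 105 and 80.3 CPM in F/R/C libraries, against 331, 337 and 248 CPM in MyoD and 423, 336 and 339 CPM in MEF libraries. The groups did not overlap, and the change was -1.74 ± 0.26 (SE, edgeR adjusted p = 0.00151) against MEF and -1.48 ± 0.25 (SE, edgeR adjusted p = 0.00372) against MyoD.

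Of the 3 TGF-beta receptor genes, 1 rose in each comparison and none fell (33.3%, beside 37.6% and 33.9% of all genes). Tgfbr1 (ALK5, chr4:47353222-47414931), the type I receptor kinase, had 123, 150.1 and 107 CPM in F/R/C, 26.9, 28.9 and 45.9 CPM in MyoD and 36.8, 35.5 and 57.5 CPM in MEF. All F/R/C libraries lay above all others, with changes of 1.55 ± 0.28 (SE, edgeR adjusted p = 0.00374) against MEF and 1.90 ± 0.29 (SE, edgeR adjusted p = 0.00234) against MyoD. Tgfbr2, its type II partner, had 219.6, 226 and 115 CPM in F/R/C, 337, 191 and 244 CPM in MyoD and 317, 261 and 373 CPM in MEF. Its changes of -0.76 ± 0.32 (SE, edgeR adjusted p = 0.0879) and -0.46 ± 0.32 (SE, edgeR adjusted p = 0.284) were not called. Tgfbr3, the co-receptor betaglycan, had 214, 298 and 57.4 CPM in F/R/C, 629, 463 and 142 CPM in MyoD and 381, 568 and 511 CPM in MEF, lowest in F/R/C replicate 3 and MyoD replicate 3. Its change of -1.36 ± 0.64 (SE, edgeR adjusted p = 0.127) against MEF was not called, and with the replicate block it was (-1.73, edgeR adjusted p = 0.0367).

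Among the activin, myostatin and other GDF ligands, 3 of 6 rose against MEF, 1 of 6 rose against MyoD and none fell. These are 50% and 16.7% of the 6 genes, beside 37.6% and 33.9% of all genes. Mstn (chr1:53061640-53068079), which encodes myostatin and is normally made by skeletal muscle, had 291, 247 and 204 CPM in F/R/C, 5.68, 3.17 and 7.99 CPM in MyoD and 1.63, 0.403 and 5.35 CPM in MEF. The 3 libraries with F/R/C lay close together, far above the rest, with a mean 44-fold that of MyoD and 100.4-fold that of MEF libraries. The log2 fold change was 6.65 ± 0.87 (SE, edgeR adjusted p = 0.000974) against MEF and 5.46 ± 0.82 (SE, edgeR adjusted p = 0.00233) against MyoD. MEF replicate 3, the MEF library with the most skeletal muscle marker RNA, was also the highest MEF library for Mstn. Without it the change against MEF was 7.89 (edgeR adjusted p = 0.000333). Gdf11, the closest relative of Mstn, had 85, 69.2 and 72.2 CPM in F/R/C, 33.1, 24.8 and 53.5 CPM in MyoD and 23.9, 19.9 and 54.5 CPM in MEF. It rose against MEF (1.20 ± 0.41 SE, edgeR adjusted p = 0.0469) and was not called against MyoD (1.02 ± 0.41 SE, edgeR adjusted p = 0.0843). The call against MEF was lost without any 1 of MEF replicates 1 and 2, MyoD replicate 1 and the 3 F/R/C replicates, with edgeR adjusted p between 0.0631 and 0.154. Against MyoD it was called without MyoD replicate 3 or MEF replicate 3 (1.37 and 0.95, edgeR adjusted p = 0.0414 and 0.0321). Gdf15, a stress-induced cytokine, had 2.69, 7.48 and 5.52 CPM in F/R/C, 1.75, 2.15 and 2.74 CPM in MyoD and 1.58, 1.33 and 0.738 CPM in MEF. Its rise was 2.10 ± 0.48 (SE, edgeR adjusted p = 0.00984) against MEF, and against MyoD, where F/R/C replicate 1 lay within the MyoD range, the difference was 1.24 ± 0.47 (SE, edgeR adjusted p = 0.07), or 1.55 without that library (edgeR adjusted p = 0.0373).

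Inhba and Inhbb encode the beta subunits of activins A and B. Neither was called. Inhbb had 225, 204 and 161 CPM in F/R/C, 7.88, 3.36 and 63.5 CPM in MyoD and 7.3, 4.15 and 293 CPM in MEF. F/R/C libraries were alike, MyoD replicate 3 stood far above the other MyoD libraries, and MEF replicate 3 exceeded every F/R/C library. The change was 0.95 ± 1.50 (SE, edgeR adjusted p = 0.647) against MEF and 5.05 without MEF replicate 3 (edgeR adjusted p = 0.0171). It was 2.98 ± 1.60 (SE, edgeR adjusted p = 0.18) against MyoD and 2.92 without MEF replicate 3 (edgeR adjusted p = 0.0437). Over the libraries left out in turn the difference of Inhbb ran between 0.33 and 5.05 against MEF and between 2.42 and 5.12 against MyoD, where MyoD replicate 3 set the highest value (edgeR adjusted p = 0.0671). Inhba had 88.8, 88.2 and 24.7 CPM in F/R/C, 54.4, 82.2 and 293 CPM in MyoD and 80.7, 104 and 109.9 CPM in MEF, highest in MyoD replicate 3 and lowest in F/R/C replicate 3. Gdf10, also called BMP3b, had 2.1, 29 and 4.27 CPM in F/R/C, 408, 91.7 and 1.11 CPM in MyoD and 317, 87.8 and 25.7 CPM in MEF. Its differences of -3.60 ± 1.74 (SE, edgeR adjusted p = 0.134) and -3.82 ± 1.76 (SE, edgeR adjusted p = 0.124) were not called, and without MyoD replicate 3, the lowest library, the difference from MyoD was -4.41 (edgeR adjusted p = 0.0385). Without MyoD replicate 1, the highest, it was -1.98 (edgeR adjusted p = 0.403). Over the libraries left out in turn the difference of Gdf10 ran between -5.50 and -2.32 against MEF and between -5.72 and -1.98 against MyoD.

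Of the 7 BMP ligand genes, 2 rose in both comparisons and 1 fell against MyoD. The shares called were 28.6% against MEF and 42.9% against MyoD, beside 37.6% and 33.9% of all genes. Gdf5, a BMP family ligand of joints and tendon that also supports muscle mass after denervation in mice, had 29.5, 24 and 60.6 CPM in F/R/C, 5.64, 4.64 and 3.9 CPM in MyoD and 3.35, 5.27 and 3.14 CPM in MEF. The F/R/C libraries lay above all others, with replicate 3 highest, and the change was 3.28 ± 0.41 (SE, edgeR adjusted p = 0.00084) against MEF and 3.01 ± 0.41 (SE, edgeR adjusted p = 0.00156) against MyoD. Bmp7, a ligand of kidney and bone development, was low throughout, with 0.462, 3.33 and 1.06 CPM in F/R/C, 0.0895, 0.415 and 0.192 CPM in MyoD and 0.093, 0.0403 and 0.138 CPM in MEF. These were 11, 73 and 22 counts in F/R/C libraries, 2, 11 and 4 counts in MyoD libraries and 2, 1 and 3 counts in MEF libraries. Only the F/R/C libraries and MyoD replicate 2 reached the filter's minimum count of 10. Scaled to library size, the ratio of summed counts was 18 against MEF (95% exact interval 8.02 to 50.3) and 6.52 against MyoD (3.88 to 11.6), intervals that cover counting error only. The fitted change was 4.09 ± 0.94 (SE, edgeR adjusted p = 0.00989) against MEF, or 3.00 without F/R/C replicate 2. Against MyoD it was 2.74 ± 0.85 (SE, edgeR adjusted p = 0.0353), or 3.44 without MyoD replicate 2, and this call was lost without F/R/C replicate 2 (1.66, edgeR adjusted p = 0.156) and without F/R/C replicate 3, MyoD replicates 1 or 3 or MEF replicates 1 or 2 (edgeR adjusted p between 0.0508 and 0.107).

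Bmp2, an inducer of bone that blocks myoblast differentiation in culture, had 14.9, 10.7 and 8.69 CPM in F/R/C, 86.6, 237 and 41 CPM in MyoD and 30.0, 207 and 7.47 CPM in MEF. Replicate 2 was the highest library of both MyoD and MEF. F/R/C lay below all MyoD libraries and overlapped MEF replicate 3, with changes of -3.41 ± 1.13 (SE, edgeR adjusted p = 0.0452) against MyoD and -2.83 ± 1.10 (SE, edgeR adjusted p = 0.0717) against MEF. The call against MyoD was lost without MyoD replicate 1 or 2 or any 1 F/R/C library (edgeR adjusted p between 0.0688 and 0.14), with a change of -2.50 without MyoD replicate 2. Against MEF the gene was called without MEF replicate 3 (-3.42, edgeR adjusted p = 0.0188), while without MEF replicate 2 the difference was -0.77 (edgeR adjusted p = 0.485). Bmp5 had 1.68, 4.33 and 0.24 CPM in F/R/C, 23.1, 165 and 2.21 CPM in MyoD and 12.5, 252 and 8.17 CPM in MEF, with replicate 2 highest in every group. Its change was -5.44 ± 1.94 (SE, edgeR adjusted p = 0.0544) against MEF and -4.93 ± 1.90 (SE, edgeR adjusted p = 0.0746) against MyoD, and with the replicate block it was called against MEF (-4.76, edgeR adjusted p = 0.00213). It was also called against MEF without MEF replicate 3 or MyoD replicate 2 or 3, and against MyoD without MEF replicate 2 or MyoD replicate 3 (edgeR adjusted p between 0.0326 and 0.0445). Without replicate 2 of the group compared with, the highest library, the difference was smaller, at -2.36 against MEF and -2.62 against MyoD (edgeR adjusted p = 0.269 and 0.276). Bmp4, Bmp6 and Gdf6 were not called. Bmp4 had 19, 40.4 and 3.6 CPM in F/R/C, 7.92, 22.9 and 35.7 CPM in MyoD and 13.2, 25.5 and 25.8 CPM in MEF. Bmp6 had 5.92, 2.96 and 4.08 CPM in F/R/C, 0.403, 0.68 and 8.03 CPM in MyoD and 0.884, 0.644 and 2.63 CPM in MEF. Gdf6 had 9.27, 15.6 and 5.95 CPM in F/R/C, 13.2, 9.71 and 10.7 CPM in MyoD and 22.8, 11.8 and 12.7 CPM in MEF. Bmp6 was highest in MyoD replicate 3, without which its difference from MyoD was 2.97 (edgeR adjusted p = 0.0197). Over the libraries left out in turn this difference ran between -0.01 and 2.97.

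**Figure D3:**
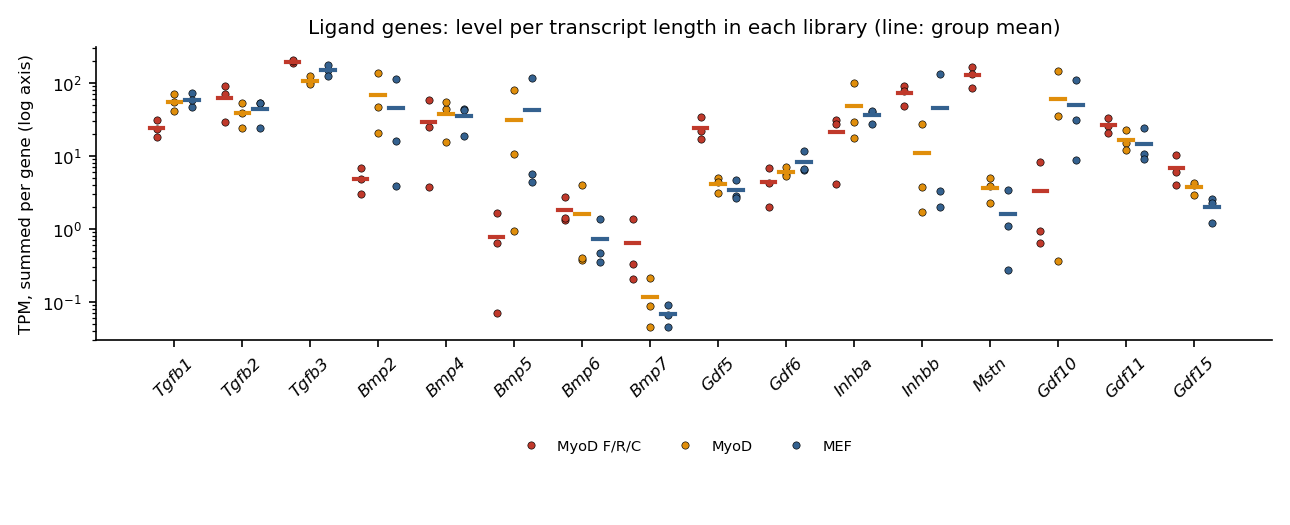
TPM summed per gene on a log axis in each library for the 16 ligand genes, with F/R/C left of MyoD and MEF and a line at the group mean. Tgfb3 and Mstn stand highest in F/R/C, at 196 and 128 TPM on average, and the Mstn points of MyoD and MEF reach at most 4.91 TPM.

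On the TPM scale, which allows levels of different genes to be set side by side, the order of the members differed between the groups. In F/R/C libraries Tgfb3 was highest at 196 ± 9.56 TPM (SD, n = 3), followed by Mstn at 128 ± 40.7, Fst at 84.3 ± 62.5 and Ltbp3 at 76 ± 19.9 TPM. The ranges of Mstn, Fst and Ltbp3 overlapped, and that of Tgfb3 lay above them. In MyoD libraries the order was led by Fst at 638 ± 348, Ltbp3 at 441 ± 46.7 and Grem1 at 379 ± 342 TPM. In MEF libraries it was led by Ltbp3 at 523 ± 91.4, Fst at 421 ± 116 and Grem1 at 409.9 ± 359.7 TPM. The leading genes of MyoD and MEF overlapped within their spread. The 4 latent binding proteins together had 99.2 to 166 TPM per F/R/C library, 979.9 to 1339 TPM per MyoD library and 1109 to 1686 TPM per MEF library. The 3 TGF-beta ligand genes together had 252 to 299 TPM in F/R/C, 177 to 227 TPM in MyoD and 225 to 278.5 TPM in MEF libraries. Set side by side without a test, the summed level of the ligands was above that of the latent binding proteins in each F/R/C library and below it in each other library.

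Of the 8 BMP and activin receptor genes, 5 fell and 1 rose against MEF, and 2 fell and 1 rose against MyoD. These are 75% and 37.5% of the receptor genes, beside 37.6% and 33.9% of all genes. Acvrl1 (ALK1), a type I receptor best known from endothelium, had 2.14, 6.15 and 3.27 CPM in F/R/C, 34.1, 36 and 16.8 CPM in MyoD and 40.8, 45.6 and 29.1 CPM in MEF. All F/R/C libraries lay below the rest, and the change was -3.32 ± 0.46 (SE, edgeR adjusted p = 0.00121) against MEF and -2.91 ± 0.45 (SE, edgeR adjusted p = 0.00258) against MyoD. The 10 endothelial markers summed to 9.27 to 17.2 CPM in F/R/C, 8.80 to 14.1 CPM in MyoD and 13.8 to 56.3 CPM in MEF libraries, with Tie1 and Emcn at 0 to 4 counts in every library. Members of this list went opposite ways. Erg, an endothelial transcription factor, had 1.01, 2.87 and 0.096 CPM in F/R/C, 12, 6.87 and 2.31 CPM in MyoD and 53, 27 and 9.73 CPM in MEF and made up most of the sum in MEF. Its change was -4.49 ± 1.10 (SE, edgeR adjusted p = 0.013) against MEF and -2.41 ± 1.02 (SE, edgeR adjusted p = 0.0993) against MyoD. The receptor gene Tek was lower, at -4.70 ± 0.72 (SE, edgeR adjusted p = 0.00179) against MEF and -3.82 ± 0.71 (SE, edgeR adjusted p = 0.00528) against MyoD, and Vwf, von Willebrand factor, was higher, at 3.83 ± 0.65 (SE, edgeR adjusted p = 0.00272) and 4.41 ± 0.67 (SE, edgeR adjusted p = 0.00244). Their part in the change of Acvrl1 was not tested. Bmpr1b, a type I receptor for BMPs and Gdf5, had 3.57, 2.42 and 2.26 CPM in F/R/C, 7.12, 4.23 and 6.93 CPM in MyoD and 11.1, 10.9 and 6.27 CPM in MEF. It fell, with log2 fold changes of -1.78 ± 0.37 (SE, edgeR adjusted p = 0.00623) against MEF and -1.15 ± 0.36 (SE, edgeR adjusted p = 0.0383) against MyoD. The call against MyoD was lost without MyoD replicate 1 or 3 or F/R/C replicate 2 or 3 (edgeR adjusted p of 0.107, 0.0804, 0.111 and 0.108). 

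Acvr1 (ALK2), the type I receptor mutated in human fibrodysplasia ossificans progressiva, had 42, 41.2 and 25.6 CPM in F/R/C, 88.7, 53.7 and 46.8 CPM in MyoD and 91.9, 75.4 and 60.9 CPM in MEF. Its fall was called against MEF (-1.07 ± 0.30 SE, edgeR adjusted p = 0.0235) but lost without MEF replicate 1 or F/R/C replicate 3 (edgeR adjusted p = 0.0604 and 0.0737). It was not called against MyoD (-0.80 ± 0.30 SE, edgeR adjusted p = 0.0708). Of the 19 alternatives 5 called it there, among them total counts as the only scaling and length-scaled counts (edgeR adjusted p = 0.0463 and 0.0496) and leaving out MyoD replicate 3 (edgeR adjusted p = 0.0438). Bmpr1a, the other main BMP type I receptor, had 141, 167 and 112 CPM in F/R/C, 176, 139 and 146 CPM in MyoD and 201, 198 and 228 CPM in MEF. Bmpr2, the BMP type II receptor, had 125, 110.3 and 70.8 CPM in F/R/C, 136, 97 and 148 CPM in MyoD and 182, 145 and 198 CPM in MEF. Both fell slightly against MEF, with log2 fold changes of -0.58 ± 0.20 (SE, edgeR adjusted p = 0.0448) for Bmpr1a and -0.78 ± 0.26 (SE, edgeR adjusted p = 0.0429) for Bmpr2. Against MyoD neither was called, at -0.13 ± 0.19 (SE, edgeR adjusted p = 0.626) for Bmpr1a and -0.32 ± 0.26 (SE, edgeR adjusted p = 0.371) for Bmpr2. Those calls lie close to the threshold. Bmpr1a lost its call without any 1 of the 9 libraries other than F/R/C replicate 2, and Bmpr2 without any 1 other than MEF replicate 2, MyoD replicate 3 and F/R/C replicate 1, with edgeR adjusted p between 0.0505 and 0.104.

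Acvr2b and Acvr2a, the type II receptors of activin and myostatin, were each called higher in 1 comparison. Acvr2b, the main myostatin receptor, had 5.08, 4.65 and 1.73 CPM in F/R/C, 0.269, 1.4 and 1.15 CPM in MyoD and 0.372, 0.805 and 1.38 CPM in MEF. Its rise was 2.15 ± 0.73 (SE, edgeR adjusted p = 0.0446) against MEF, while 2.01 ± 0.72 (SE, edgeR adjusted p = 0.0595) against MyoD was not called, although the F/R/C libraries lay above both groups. Any 1 of MEF replicates 1 and 2, MyoD replicates 2 and 3 and F/R/C replicates 1 and 2 ended, when left out, the call against MEF (edgeR adjusted p between 0.0514 and 0.124). Acvr2a had 101, 86 and 69 CPM in F/R/C, 51.9, 43.5 and 41.3 CPM in MyoD and 63.3, 63.5 and 28.7 CPM in MEF. It rose against MyoD (0.90 ± 0.30 SE, edgeR adjusted p = 0.0485) and had 0.72 ± 0.30 (SE, edgeR adjusted p = 0.0936) against MEF, which the replicate block called (0.77, edgeR adjusted p = 0.027). Under the total counts as the only scaling Acvr2a was not called against MyoD (edgeR adjusted p = 0.119), nor was it without any 1 library other than MEF replicate 3 (edgeR adjusted p between 0.061 and 0.134). Acvr1b (ALK4), the type I receptor of activin, had 38.5, 56.9 and 33.8 CPM in F/R/C, 60.8, 52.5 and 23.7 CPM in MyoD and 49.7, 67.3 and 66.7 CPM in MEF and was not called.

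Of the 8 Smad genes, 3 fell in each comparison and none rose at the threshold. That is 37.5%, near the 37.6% of all genes called against MEF and the 33.9% called against MyoD. Smad6, the inhibitory Smad of the BMP branch, had 5.25, 9.94 and 7.83 CPM in F/R/C, 20.7, 23.6 and 16 CPM in MyoD and 21.5, 29.3 and 16.8 CPM in MEF. Each F/R/C library lay under those of both other groups, with changes of -1.55 ± 0.31 (SE, edgeR adjusted p = 0.00578) against MEF and -1.39 ± 0.31 (SE, edgeR adjusted p = 0.0108) against MyoD. Smad9, a BMP-branch Smad, had 1.34, 3.19 and 1.34 CPM in F/R/C, 5.19, 14.1 and 5.44 CPM in MyoD and 3.86, 14.5 and 6.18 CPM in MEF. Replicate 2 was the highest library in each group, and the changes were -2.06 ± 0.65 (SE, edgeR adjusted p = 0.0347) and -2.07 ± 0.65 (SE, edgeR adjusted p = 0.037). The calls of Smad9 were lost without F/R/C replicate 1 or 3 in either comparison, without MEF replicate 2 against MEF (-1.41) and without MyoD replicate 2 against MyoD (-1.47), with edgeR adjusted p between 0.108 and 0.123. Smad2, a mediator of TGF-beta and activin signals, had 50.1, 49 and 40.6 CPM in F/R/C, 70.2, 70.3 and 67.1 CPM in MyoD and 67.9, 77.5 and 76.5 CPM in MEF. This small fall was -0.67 ± 0.15 (SE, edgeR adjusted p = 0.00869) against MEF and -0.57 ± 0.15 (SE, edgeR adjusted p = 0.0187) against MyoD, the call against MyoD being lost without MyoD replicate 1 or 2 (edgeR adjusted p = 0.0577 and 0.05). It was not called when counts were scaled from TPM by transcript length (-0.41, edgeR adjusted p = 0.127 against MEF, and -0.40, edgeR adjusted p = 0.144 against MyoD).

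Smad1, Smad3, Smad4, Smad5 and Smad7 were not called. Smad1, a BMP-branch Smad, had 54.6, 70.3 and 70.5 CPM in F/R/C, 26, 41.5 and 45.1 CPM in MyoD and 26.2, 43.4 and 46.9 CPM in MEF. Every F/R/C library exceeded the others. The difference was 0.75 ± 0.28 (SE, edgeR adjusted p = 0.0653) against MEF and 0.79 ± 0.28 (SE, edgeR adjusted p = 0.0574) against MyoD. The replicate block called it against MEF (0.78, edgeR adjusted p = 0.00654), as did leaving out MEF replicate 1 against MyoD (edgeR adjusted p = 0.0471). Smad5, of the same branch, had 95.8, 89.3 and 81.8 CPM in F/R/C, 153, 129 and 91.3 CPM in MyoD and 152, 153 and 102 CPM in MEF, with -0.61 ± 0.24 (SE, edgeR adjusted p = 0.0714) against MEF, called with the block (-0.58, edgeR adjusted p = 0.0244) and without MEF replicate 3 or MyoD replicate 3 (-0.83 and -0.62, edgeR adjusted p = 0.0313 and 0.0441). Smad3 had 147, 179 and 131 CPM in F/R/C, 216, 192 and 197 CPM in MyoD and 169, 207 and 178 CPM in MEF. Smad4, the common partner, had 66.1, 74.2 and 54 CPM in F/R/C, 70.2, 62 and 68.9 CPM in MyoD and 82.2, 72.1 and 81.2 CPM in MEF. Smad7, the inhibitory Smad of the TGF-beta branch, had 18.4, 46 and 15.7 CPM in F/R/C, 27, 44.7 and 48.1 CPM in MyoD and 29.4, 42.8 and 38.8 CPM in MEF, with F/R/C replicate 2 apart from its group. Without that library it was called against MEF and against MyoD (-1.12 and -1.23, edgeR adjusted p = 0.0304 and 0.0274). With each of the other libraries left out in turn, its difference reached no nearer to 0 than -0.20 against MEF and -0.31 against MyoD. The corepressors Skil and Tgif1 stood at 38.8, 66.8 and 38.7 CPM and 35.2, 45.4 and 34.5 CPM in F/R/C libraries, 37.7, 40.0 and 37.3 CPM and 30.8, 53.7 and 89.9 CPM in MyoD libraries and 79.1, 59.2 and 30.0 CPM and 26.7, 35.7 and 66.5 CPM in MEF libraries, and neither was called.

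Of the 6 antagonist genes, noggin rose while Bambi and follistatin fell in both comparisons, and chordin fell against MEF. The shares called were 66.7% and 50%, beside 37.6% and 33.9% of all genes. Nog (chr11:89300638-89302332), which encodes noggin, a secreted protein that binds BMPs and Gdf5, had 14.3, 22.2 and 25.4 CPM in F/R/C, 1.7, 2.68 and 2.07 CPM in MyoD and 0.512, 2.74 and 0.877 CPM in MEF. The F/R/C libraries lay above all others, with changes of 3.89 ± 0.61 (SE, edgeR adjusted p = 0.00204) against MEF, or 4.82 without MEF replicate 2, and 3.26 ± 0.59 (SE, edgeR adjusted p = 0.0048) against MyoD. Bambi, a decoy receptor without a kinase that is itself induced by BMP and TGF-beta signals, had 3.36, 3.51 and 3.99 CPM in F/R/C, 30.3, 32.6 and 19 CPM in MyoD and 21.8, 48.1 and 20.8 CPM in MEF. Its fall was -3.06 ± 0.39 (SE, edgeR adjusted p = 0.000847) against MEF and -2.91 ± 0.38 (SE, edgeR adjusted p = 0.00145) against MyoD, with no overlap. Fst, which encodes follistatin, an inhibitor of activin and myostatin, had 68.9, 165 and 49.2 CPM in F/R/C, 388, 400.3 and 1004 CPM in MyoD and 275, 445 and 471 CPM in MEF. MyoD replicate 3 was the highest of the 9 libraries and F/R/C replicate 2 the highest of its group, still below all MyoD and MEF libraries. The change of Fst was -2.07 ± 0.55 (SE, edgeR adjusted p = 0.0175) against MEF, lost without F/R/C replicate 1 or 3 (edgeR adjusted p = 0.0638 and 0.0597), and -2.66 ± 0.56 (SE, edgeR adjusted p = 0.00831) against MyoD. Without F/R/C replicate 2 it was -2.75 against MEF and -3.34 against MyoD, and without MyoD replicate 3 -2.07 against MyoD. Chrd, which encodes the BMP-binding chordin, had 13.2, 12.9 and 8.88 CPM in F/R/C, 25.3, 20.6 and 14.3 CPM in MyoD and 49.6, 26.4 and 16.6 CPM in MEF. Its change was -1.40 ± 0.41 (SE, edgeR adjusted p = 0.0252) against MEF, lost without MEF replicate 1 or any 1 F/R/C library (edgeR adjusted p between 0.0551 and 0.088), and -0.78 ± 0.40 (SE, edgeR adjusted p = 0.162) against MyoD, not called. Grem1, which encodes the BMP antagonist gremlin, had 195, 225 and 94.9 CPM in F/R/C, 232, 606 and 1934 CPM in MyoD and 156, 875 and 1906 CPM in MEF. Replicate 1 was lowest and replicate 3 highest in both MyoD and MEF. The differences of -2.51 ± 0.96 (SE, edgeR adjusted p = 0.0692) and -2.43 ± 0.96 (SE, edgeR adjusted p = 0.0809) were not called. Over the libraries left out in turn they ran between -3.08 and -1.64 against MEF and between -2.89 and -1.29 against MyoD. Without MEF replicate 1 both were called (-3.08 and -2.49, edgeR adjusted p = 0.0259 and 0.0394), as was that from MEF without MyoD replicate 3 (edgeR adjusted p = 0.0416). Fstl3, a relative of follistatin, had 19.4, 30.3 and 18.9 CPM in F/R/C, 21.3, 16.9 and 37.7 CPM in MyoD and 55.3, 25.7 and 51.9 CPM in MEF and was not called, though without MEF replicate 2 its difference from MEF was -1.28 (edgeR adjusted p = 0.0353).

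**Figure D4:**
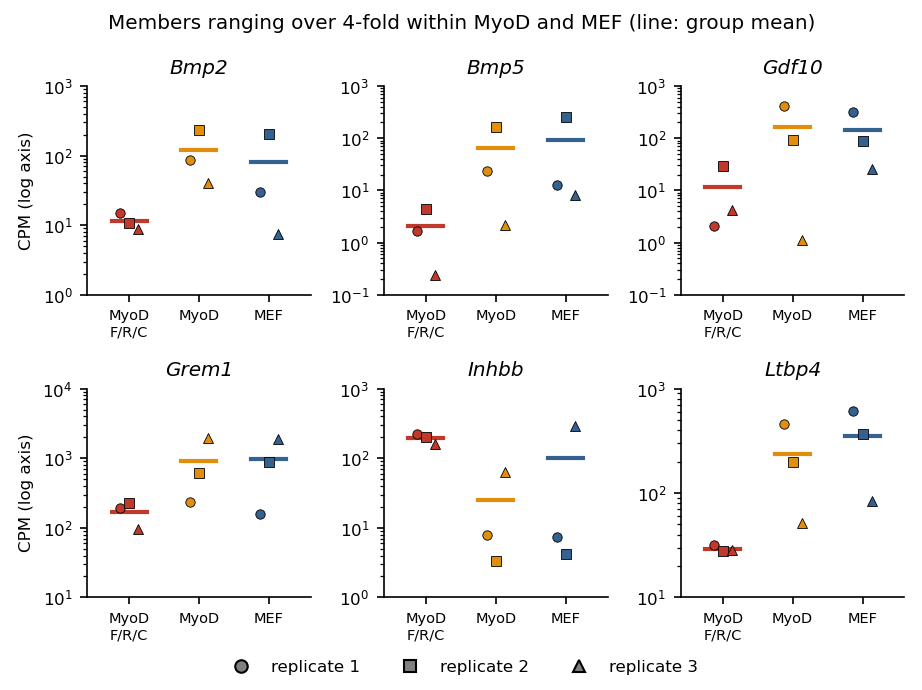
CPM on a log axis in each library for 6 of the 7 genes that ranged over more than 4-fold within both MyoD and MEF, with the replicate number as the marker shape and a line at the group mean. Replicate 2 is highest for Bmp2 and Bmp5 in MyoD and MEF, replicate 1 for Gdf10 and Ltbp4, and replicate 3 for Grem1 and Inhbb.

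Some members varied widely between the libraries of a group. The highest library was more than 4-fold above the lowest for 5 of 48 genes in F/R/C, 11 of the 47 with over 3 counts in every library in MyoD and 9 of 47 in MEF. Bmp2, Bmp5, Bmp6, Gdf10, Grem1, Inhbb and Ltbp4 belong to these in MyoD and MEF libraries. The same replicate number was the highest in MyoD and in MEF for 32 of the 48 genes, and in F/R/C and in MEF for 18. Cartilage and bone markers varied along with these numbers, summing to 233, 103 and 59.9 CPM in MyoD and 347, 178 and 65.5 CPM in MEF replicates 1, 2 and 3, against 37.2, 38.8 and 24.2 CPM in F/R/C. Their part in the spread of the members was not tested.

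With MyoD alone, no member was called against MEF by edgeR or by DESeq2, where edgeR called 0% of all genes tested. At an unadjusted p under 0.05, 1 of the 48 genes (Bmpr1a, lower in MyoD) passed, beside 4.66% of all genes (1.31% lower). DESeq2 called 160 genes higher and 11 lower over all genes. With the replicate block edgeR called 13 higher and 0 lower. Without MEF replicate 3 it called 158 higher and 3 lower. No member was among these. The log2 fold changes of the 48 genes ran between -2.03 for Inhbb and 1.35 for Bmp7, with a median of -0.18 beside -0.01 over all genes. That of Inhbb rests on single libraries, at 2.14 without MEF replicate 3 and -4.18 without MyoD replicate 3. The groups did not overlap for 3 members (Bmpr1a, Gdf15 and Smad4), beside 7.52% of all genes. For a single gene, an exact two-sided permutation test over 3 and 3 libraries cannot go below p = 0.1.

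The estimated counts of single transcripts showed which transcripts carried a change, with the limit that reads shared between overlapping transcripts were divided by estimation. Of 133 member transcripts tested, none was called with MyoD alone against MEF, beside 0.0112% of all 44724 transcripts. With F/R/C, 5 rose and 21 fell against MEF, beside 11.5% of all, and 5 rose and 17 fell against MyoD, beside 7.88%. DESeq2 called 40 and 35, and 1 with MyoD alone. Without MEF replicate 1 or 2, 16 and 15 were called against MEF, and without MyoD replicate 1 or 2 or F/R/C replicate 3, 10, 11 and 11 against MyoD. The share of all transcripts called was computed for the main fit only, so these shifts cannot be set beside those of all transcripts. The fall of Ltbp1 was called in 4 of its transcripts in both comparisons, among them Ltbp1-202 at 14.5 ± 3.30 TPM in F/R/C, 143 ± 17.1 TPM in MyoD and 155 ± 40.9 TPM in MEF libraries (SD, n = 3). Ltbp2 had 5 such transcripts, led by Ltbp2-201 at 7.62 ± 3.25, 186 ± 51.6 and 250 ± 92.9 TPM in F/R/C, MyoD and MEF. Ltbp3 had 2, led by Ltbp3-201 at 43.8 ± 15.8, 284 ± 48.3 and 345 ± 44.5 TPM. For Smad2, the called transcript was the longest, Smad2-205 of 8089 bases, at 3.26 ± 1.14 TPM in F/R/C, 9.19 ± 1.40 TPM in MyoD and 9.82 ± 1.53 TPM in MEF (log2 fold change against MEF -1.17 ± 0.23, edgeR adjusted p = 0.0165). The shorter Smad2-201, of 2410 bases, had 11.3 ± 1.77 TPM in F/R/C, 12.9 ± 0.856 TPM in MyoD and 13.8 ± 0.933 TPM in MEF (0.15 ± 0.22, edgeR adjusted p = 0.763). For Acvrl1, the call lay in Acvrl1-205 (-3.48 ± 0.37 against MEF, edgeR adjusted p = 0.00246), for Fst in Fst-202 (-2.11 ± 0.56, edgeR adjusted p = 0.0447), and for Ltbp4 in Ltbp4-205 (-3.69 ± 0.88, edgeR adjusted p = 0.0312). Mstn-201, Tgfbr1-201, Gdf15-202, Smad6-201, Bmpr1b-201 and Chrd-201 were the transcripts of their genes called against MEF. Bmp1 had both the coding Bmp1-201 and the nonsense-mediated decay transcript Bmp1-205 called there. Of the transcripts named here as called against MEF, Ltbp4-205, Gdf15-202, Bmpr1b-201, Chrd-201 and Bmp1-205 were not called against MyoD.

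The other listed components of the pathways, 51 genes of which 44 were tested, moved in both directions. Against MEF 8 rose and 11 fell, 43.2% beside 37.6% of all genes, and against MyoD 5 rose and 10 fell, 34.1% beside 33.9%. The medians were -0.30 and -0.20. Without F/R/C replicates 1, 2 or 3 the calls against MyoD numbered 9, 9 and 7. Hjv, the BMP co-receptor haemojuvelin of liver and skeletal muscle, had 174, 212 and 270.0 CPM in F/R/C, 10.4, 12.7 and 22.1 CPM in MyoD and 0, 0.0403 and 2.95 CPM in MEF. Its increase was 7.79 ± 1.38 (SE, edgeR adjusted p = 0.00327) against MEF and 3.86 ± 1.13 (SE, edgeR adjusted p = 0.0289) against MyoD. Itgb6, the integrin subunit that with alpha V releases active TGF-beta, had 36.7, 35.6 and 32.6 CPM in F/R/C, 1.7, 3.1 and 5.34 CPM in MyoD and 0, 0 and 0.6 CPM in MEF, at 0, 0 and 13 counts in MEF. It rose by 7.44 ± 1.15 (SE, edgeR adjusted p = 0.00187) against MEF and by 3.37 ± 0.91 (SE, edgeR adjusted p = 0.0213) against MyoD. Rgma, another BMP co-receptor, had 189, 149 and 142 CPM in F/R/C, 44, 22.8 and 21.2 CPM in MyoD and 65.4, 36.2 and 39.4 CPM in MEF. It rose by 2.45 ± 0.35 (SE, edgeR adjusted p = 0.00195) against MyoD. Tgif2, a corepressor, had 35.5, 26.1 and 37.9 CPM in F/R/C, 7.65, 8.57 and 14.1 CPM in MyoD and 9.95, 9.38 and 17.7 CPM in MEF. It rose by 1.72 ± 0.34 (SE, edgeR adjusted p = 0.00689) against MyoD. Amhr2, the receptor of anti-Müllerian hormone, was low, with 1.26, 1.37 and 1.54 CPM in F/R/C, 0.358, 0.227 and 0.192 CPM in MyoD and 0.233, 0.0805 and 0.0923 CPM in MEF, and rose by 3.32 ± 0.54 (SE, edgeR adjusted p = 0.00229) against MEF. MEF replicates 2 and 3 lay under the level of 3 counts (0.121 and 0.138 CPM). Only the F/R/C libraries reached the filter's minimum count of 10, so the size of this rise is uncertain. Sost, better known as a Wnt inhibitor, had 36, 24 and 67 counts in F/R/C, 22, 88 and 7 counts in MyoD and 0, 0 and 1 count in MEF libraries, a ratio to MEF of 129.7 with a 95% exact interval of 22.9 to 5162. The ratio to MyoD was 1.135 (0.876 to 1.47). Both intervals cover counting error only and leave out the spread between libraries. Of those that fell, the corepressor Ski had 107, 129.7 and 85.2 CPM in F/R/C, 457, 368 and 293 CPM in MyoD and 507, 481 and 317 CPM in MEF. Its change was -2.02 ± 0.28 (SE, edgeR adjusted p = 0.00118) against MEF and -1.80 ± 0.28 (SE, edgeR adjusted p = 0.00251) against MyoD. Fstl1, a secreted glycoprotein of mesenchymal cells, had 454, 480.3 and 257 CPM in F/R/C, 2046, 1057 and 925 CPM in MyoD and 2820.4, 1876 and 2059 CPM in MEF. It changed by -2.50 ± 0.41 (SE, edgeR adjusted p = 0.00231) against MEF. Ldlrad4 and Pmepa1 are related TGF-beta-induced membrane proteins that dampen Smad signalling. Ldlrad4 had 2.06, 2.28 and 0.96 CPM in F/R/C, 49.3, 18.3 and 12.1 CPM in MyoD and 58.3, 32 and 10.1 CPM in MEF. It changed by -4.24 ± 0.79 (SE, edgeR adjusted p = 0.00404) against MEF. Pmepa1 had 36.7, 47.5 and 41 CPM in F/R/C, 312, 126 and 157 CPM in MyoD and 742, 229 and 162 CPM in MEF. It changed by -3.18 ± 0.61 (SE, edgeR adjusted p = 0.00452) against MEF.

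**Figure D5:**
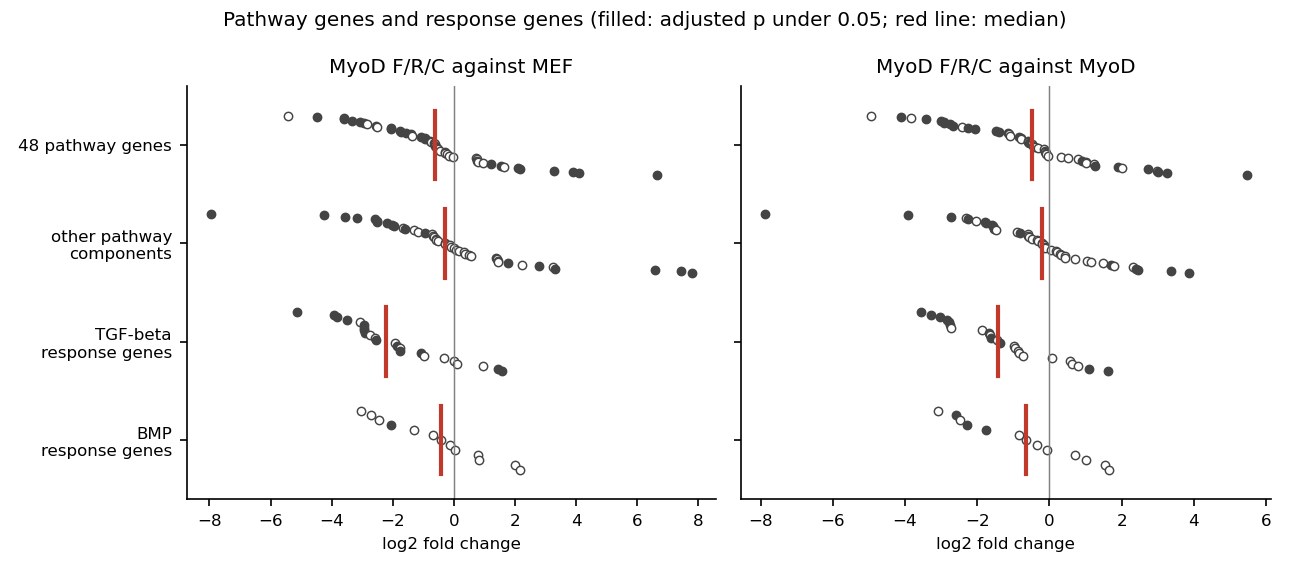
Log2 fold change (x axis) of each tested gene of the 48 members, the other pathway components, the TGF-beta response genes and the BMP response genes, with F/R/C against MEF (left) and against MyoD (right). Filled points had an adjusted p under 0.05 and red lines mark medians, which for the TGF-beta response genes lie at -2.23 and -1.41.

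Of 24 genes known to be induced by TGF-beta, 20 had a negative log2 fold change against MEF and 18 against MyoD. At the threshold 12 fell and 2 rose against MEF, 58.3% beside 37.6% of all genes (18.1% lower). Against MyoD 9 fell and 2 rose, 45.8% beside 33.9% (16.1% lower). The medians were -2.23 and -1.41. Fewer were called without F/R/C replicate 1 or 3 against MEF (9 in each case) and without F/R/C replicate 2 or 3 against MyoD (5 in each case). Lox, which cross-links collagen, had 202, 138 and 64.8 CPM in F/R/C, 2532, 718 and 712 CPM in MyoD and 9998, 2425 and 1825 CPM in MEF. It changed by -5.14 ± 0.92 (SE, edgeR adjusted p = 0.00352) against MEF and -3.29 ± 0.85 (SE, edgeR adjusted p = 0.018) against MyoD. Ccn2, connective tissue growth factor, had 40.3, 85.8 and 141 CPM in F/R/C, 499, 338 and 1355 CPM in MyoD and 1886, 1276 and 658 CPM in MEF. It changed by -3.84 ± 0.71 (SE, edgeR adjusted p = 0.00387) against MEF. Timp1, a metalloprotease inhibitor, had 57.3, 61 and 66.9 CPM in F/R/C, 391, 248 and 636 CPM in MyoD and 625, 252 and 521 CPM in MEF. Its change was -2.92 ± 0.43 (SE, edgeR adjusted p = 0.00158) against MEF and -2.78 ± 0.43 (SE, edgeR adjusted p = 0.00253) against MyoD. Col1a2, a collagen I chain, is also among the fibroblast markers above, as are Col1a1 and Col3a1 of this list. Col1a2 had 1264, 1234 and 896 CPM in F/R/C, 4986, 2149 and 3286 CPM in MyoD and 15339, 4751 and 5898 CPM in MEF. It changed by -2.94 ± 0.54 (SE, edgeR adjusted p = 0.00391) against MEF. Cdkn2b, the cell cycle inhibitor p15, had 41, 35.9 and 51 CPM in F/R/C, 125, 107 and 96 CPM in MyoD and 71.3, 89 and 108 CPM in MEF. It changed by -1.36 ± 0.22 (SE, edgeR adjusted p = 0.00282) against MyoD. Those that rose against MEF were Cdkn1a and Klf10, and against MyoD Cdkn1a and Loxl2. Cdkn1a, the cell cycle inhibitor p21 that also rises as myoblasts differentiate, had 1042, 1265 and 1985 CPM in F/R/C, 588, 635 and 786 CPM in MyoD and 376, 417 and 657 CPM in MEF. Its rise was 1.57 ± 0.33 (SE, edgeR adjusted p = 0.00679) against MEF and 1.10 ± 0.33 (SE, edgeR adjusted p = 0.0309) against MyoD. Klf10, an early TGF-beta target, had 58.4, 108 and 76.6 CPM in F/R/C, 45.2, 70.5 and 25.4 CPM in MyoD and 33.4, 43.8 and 13.1 CPM in MEF. It rose by 1.43 ± 0.50 (SE, edgeR adjusted p = 0.0494) against MEF. Loxl2, a relative of Lox, had 377, 254 and 278 CPM in F/R/C, 78.7, 93.8 and 120.0 CPM in MyoD and 351, 154 and 349.9 CPM in MEF. It rose by 1.63 ± 0.34 (SE, edgeR adjusted p = 0.00831) against MyoD.

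Of 13 BMP response genes, 1 was called against MEF, 7.69% beside 37.6% of all genes, and 3 against MyoD, 23.1% beside 33.9%. Runx2, the osteoblast transcription factor, had 18.7, 13.6 and 7.87 CPM in F/R/C, 52.5, 45.4 and 37 CPM in MyoD and 75.4, 54.7 and 36.5 CPM in MEF. It fell, with log2 fold changes of -2.05 ± 0.37 (SE, edgeR adjusted p = 0.00341) against MEF and -1.75 ± 0.36 (SE, edgeR adjusted p = 0.00792) against MyoD. Against MyoD, Sp7 and Msx2 also fell. Runx2 and Sp7 are also among the cartilage and bone markers summed above, and the part of that marker shift in their changes was not tested. Sp7, a bone factor that acts after Runx2, had 0.0839, 0.501 and 0.336 CPM in F/R/C, 1.3, 1.1 and 2.12 CPM in MyoD and 0.605, 1.17 and 0.508 CPM in MEF. It changed by -2.28 ± 0.66 (SE, edgeR adjusted p = 0.0277). Runx2 was the only BMP response gene called against MEF, while 5 were with the replicate block: Runx2, Dlx5 and Msx2 lower (-2.70 and -1.95 for the last 2) and Dlx3 and Hey1 higher (2.50 and 3.25). Calls against MEF numbered 2, 3, 3 and 3 without MEF replicates 1, 2 and 3 and MyoD replicate 1. Against MyoD 1 call was left without F/R/C replicate 1 and likewise without replicate 3. Id1, Id2, Id3 and Id4, the most direct BMP targets, were not called in any comparison.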

How the data were processed

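Polyadenylated RNA of 9 Dmdmdx MEF libraries, 3 in each of 3 groups, was prepared with a TruSeq Stranded kit for mRNA, as the labels give. The tools that the submitters' processing notes name are bcl2fastq 2.19, Trimmomatic 0.36, kallisto 0.44 and edgeR, with GRCm38.p6. Which annotation release and strand setting the authors used is not given in the sources used here. Each deposited table lists 121843 transcripts with 2 values that the file headers name: the estimated count (expected count) and the TPM, which accounts for effective length.

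GENCODE M21 (GRCm38) gave a gene for 121104 of these transcripts. The remaining 739, with 0.2% to 0.494% of the counts of a library, were left out. Estimated counts were summed per gene and rounded. The test was that of edgeR 4.0.16, run in R 4.3.3 (filterByExpr, minimum count 10 and minimum total 15, 15714 genes; TMM; two-sided quasi-likelihood F test; 1 fit over 9 libraries), with p-values adjusted by Benjamini and Hochberg over all genes of a comparison and called under 0.05. The SE of a log2 fold change is its size over the root of its F statistic. Transcripts were tested in the same way. Levels between genes were set side by side only in TPM, summed per gene. A level of 3 counts, the limit taken for a count of 0, is 0.113 to 0.144 CPM. The scripts were tested on simulated counts.

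Replicate numbers are shared between groups. Deviations from group means correlated between equal numbers at 0.655, 0.632 and 0.729 for MyoD and MEF and at 0.142, 0.151 and 0.101 for F/R/C and MEF. That the numbers may pair libraries is read from the data and not from the labels. The main fit has no block, so the calls in the text do not use such pairs. Blocked values are given where they change a call of a member against MEF. For F/R/C and MyoD, equal numbers (0.0837, 0.119 and 0.164) also correlated above all unequal ones (-0.136 to 0.0447), in a range that overlaps that of F/R/C and MEF. The member calls that the block changes against MyoD are listed in the closing section. Libraries of a group differed by far more than counting error.

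Every member is given by role, with values of each library where it was called and reached 1 CPM in a group. From the other lists the text names up to 4 genes in each direction against MEF and up to 2 against MyoD, by adjusted p. Genes named for a change with the block or without a library were chosen after their values were seen. Members and lists were chosen with earlier results of these data known. Sequences are from RefSeq (GRCm38.p6). Alternatives were other scalings, filters, DESeq2 1.42.0, 2 groups alone, length-scaled counts, a fold change threshold, the block and leaving out each library.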

Additional observations from a re-analysis of the deposited data

How the results depend on the processing

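Among the genes named, no called direction was reversed under any alternative tried. Of the member calls, 14 of 26 against MEF and 13 of 21 against MyoD kept an adjusted p under 0.05 wherever they were tested. Against MEF these were Tgfbr1, Bmp7, Mstn, Gdf5, Gdf15 and Nog, higher, and Ltbp1, Ltbp2, Ltbp3, Bmp1, Bmpr1b, Acvrl1, Bambi and Smad6, lower. Against MyoD they were Tgfb3, Tgfbr1, Mstn, Gdf5 and Nog, higher, and Ltbp1, Ltbp2, Ltbp3, Bmp1, Acvrl1, Fst, Bambi and Smad6, lower. The call of Bmp7 against MEF could be checked in only 17 of the alternatives, as the others did not test the gene.

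Leaving out each library in turn gave 6 to 10 members higher and 9 to 19 lower against MEF, and 5 to 9 higher and 9 to 15 lower against MyoD. Over all genes it gave 2168 to 3260 higher and 2065 to 3102 lower against MEF, and 1778 to 2756 higher and 1744 to 2819 lower against MyoD. It gave 13 to 22 and 7 to 16 other pathway components called against MEF and MyoD, 9 to 17 and 5 to 11 TGF-beta response genes, 1 to 3 and 1 to 4 BMP response genes, and 15 to 25 and 10 to 23 member transcripts. For MyoD against MEF it gave 0 to 2 other components, the 2 without MEF replicate 3. Under DESeq2, 11 members rose against MyoD, beside 3255 of all genes. It called 4 BMP response genes against MEF, and 40 and 35 member transcripts against MEF and MyoD. For MyoD against MEF it called 2 other components, 1 TGF-beta response gene and 1 member transcript. With no filter on low counts 2 BMP response genes were called against MEF. With the replicate block 11 members rose against MyoD, beside 3348 of all genes. It called 5 BMP response genes against each of MEF and MyoD. Against MyoD the block added 7 member calls (Tgfb2, Bmp5, Acvr1, Inhbb, Gdf11, Chrd and Smad1), which the main fit does not hold. It ended the call of Tgfb1 against MyoD (-0.80, edgeR adjusted p = 0.0544), and the other changes of call it made against MEF stand in the report.

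An alternative chosen after seeing the data left out the third library of both MEF and MyoD. It gave 4 BMP response genes called against MEF and 2 other components for MyoD against MEF, and Gdf11 rose by 1.84 against MEF. Over all genes it called 3354 higher and 2730 lower against MEF, from 3067 and 2849. Against MyoD it called 3119 higher and 2777 lower, from 2796 and 2531. Among the members it added 7 calls and ended 3 against MEF, and added 9 and ended 3 against MyoD. Those added against MEF were Bmp2, Bmp5, Bmp6, Gdf10, Inhbb, Smad1 and Smad5, with Inhbb at 5.15 (edgeR adjusted p = 0.000219), and those ended were Tgfb1, Bmpr1a and Bmpr2. Those added against MyoD were Bmp5, Bmp6, Gdf10, Gdf11, Inhbb, Acvr1, Chrd, Smad1 and Smad5, with Inhbb at 5.13 (edgeR adjusted p = 0.000328), and those ended were Tgfb1, Bmp7 and Bmpr1b. Scaling by total counts moved the median of all genes to -0.13 against MEF and -0.21 against MyoD, and the split of calls over all genes against MyoD to 2295 higher and 3119 lower, from 2796 and 2531. With 3 libraries in a group, changes near the threshold, such as those of Bmpr1a, Bmpr2, Acvr2a and Gdf11, are set by single libraries. Genes at a few counts, such as Bmp7, are limited by counting error beside the spread between libraries.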
